A study of Mus musculus with 9 samples.

Results

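The 10 genes that encode receptor chains for cytokines and interferons were described across the RiboSeq libraries of TTP-deficient mouse macrophages, 10 of the 16921 gene identifiers in the table. They are Il7r, Il2rg, Il4ra, Il6st, Il10ra, Il10rb, Ifnar1, Ifnar2, Ifngr1 and Ifngr2. Their mean deposited value over the 9 libraries ranged from 165 for Il10ra to 593 for Ifngr1. Il7r was selected on its change in these libraries, so its differences are given as a description, with an error and without a test, and it enters no count of genes past a threshold. The other 9 were chosen by their receptor family while results of these data were known, so their p-values are no independent evidence.

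RiboSeq counts the stretches of mRNA that ribosomes protect from nuclease, so that a footprint level combines the amount of an mRNA with the density of ribosomes on it, and these cannot be told apart here. The cells were bone marrow-derived macrophages (BMDMs) without TTP, immortalized with hcmyc and hRas G12V and positive for CD11b and F4/80, which then received a doxycycline-inducible retroviral vector. The vector expressed GFP alone (GFP-only macrophages), GFP fused to wild-type TTP (TTP macrophages), or GFP fused to the S52A, S178A mutant that the kinase MK2 cannot phosphorylate (TTP-AA macrophages). Each condition has 3 libraries, described as biological replicates, and all cells had 6 h of doxycycline (1 µg/ml) and 1 h of LPS (1 µg/ml). Each condition is 1 transduced line. GFP-positive cells were sorted, and whether a line grew from 1 clone is not given in the sources used here, so that construct and line cannot be told apart.

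TTP, encoded by Zfp36, binds AU-rich elements in the 3′UTRs of short-lived mRNAs and directs them to decay, and its phosphorylation by MK2 weakens this. Cytokine receptors of this kind have no kinase of their own. A ligand brings chains together, JAK kinases bound to the chains phosphorylate them, and STAT factors carry the signal to the nucleus. Many chains are shared, so that a single chain can serve several cytokines. Macrophages respond through these receptors to IL-10, which dampens inflammation, to IL-4, and to type I and type II interferons, whereas Il7r is best known from lymphocytes.

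The deposited values were what the authors' model fitted for each library, with sums of 2570292 to 12804501 per library, and contain no scatter between replicates. Zfp36 had a level of 459 in GFP-only, 927 in TTP and 1535 in TTP-AA macrophages. Its log2 difference was 1.01 with TTP over GFP-only (adjusted p = 0.0048) and 0.73 between TTP-AA and TTP (adjusted p = 0.039), and the part of this difference between the constructs in the results below was not tested. All 10 macrophage markers were present, 9 of them with a level of at least 10, and their summed level was 99408 in GFP-only, 80263 in TTP and 112282 in TTP-AA macrophages. Lyz2 made up 64030, 46028 and 71358 of these sums, which without it were 35378, 34235 and 40924. Between TTP and GFP-only, 3 of the 9 tested markers fell and 6 did not pass, where 1.29% of all genes tested fell. The 3 were Fcgr1 (-0.95), Lyz2 (-0.48) and Emr1, the gene of F4/80 (-0.68 on the log2 scale). Between TTP-AA and TTP, 4 rose (Fcgr1, Lyz2, Spi1 and Emr1, the last by 1.22) and Ptprc fell. Over all genes 10.3% passed there, 5.64% with a higher value. Between TTP-AA and GFP-only, Emr1 rose (0.54, adjusted p = 0.029) and 8 did not pass, where 1.75% of all genes rose. The part of these shifts in the values of the receptor genes was not tested. Of the 9 lymphocyte markers analysed, the T-cell genes Cd3d, Cd247 and Trac and the B-cell genes Cd79a and Ebf1 lay below 1 in every library. The other 4 were Dntt at 2.72 to 3.26, Lck at 5.81 to 8.20, Ighm at 7.61 to 9.81 and Gata3 at 43.1 to 64.1. Markers of T and innate lymphoid cells summed to 56.2 to 62.6, those of the B lineage to 11.2 to 13.0, of dendritic cells to 11.4 to 14.9 and of fibroblasts to 1.93 to 2.07 over the 3 conditions.

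A level is the geometric mean of the fitted values of the 3 libraries of a condition after removal of the size factor, in footprints per library. Differences are on the log2 scale, with the standard error (SE) that the authors' model gave for that gene, and they are shrunken towards 0 by that model. Replicate values of a gene differ only by a term for the replicate number that is the same in each condition, so that the order of the conditions is the same in every replicate by construction. Whether the values of conditions or genes overlap therefore depends only on the size of that term beside the difference, and is no measure of reproducibility.

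**Figure D1:**
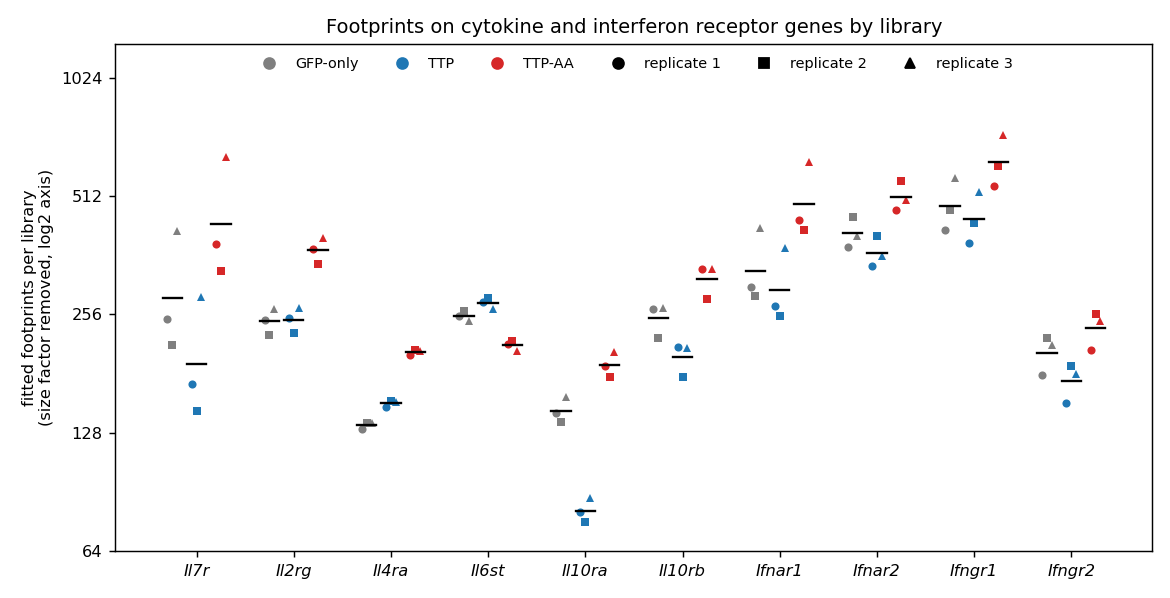
Fitted footprints of the 10 receptor genes in the 9 libraries, after removal of the size factor, on a log2 axis. Colours mark the 3 conditions, symbols the replicate number and black bars the level of a condition. Il10ra was lowest in TTP macrophages, at 75.7 to 87.5, and Il7r was spread most by replicate number.

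Il7r encodes the alpha chain of the IL-7 receptor, which pairs with the common gamma chain (Il2rg) or, for the cytokine TSLP, with the chain encoded by Crlf2. In GRCm38 it spans chr15:9505788-9530176 on the minus strand. In GFP-only macrophages its values were 249, 214 and 417 in replicates 1, 2 and 3. In TTP macrophages they were 170, 146 and 283, and in TTP-AA macrophages 386, 330.3 and 644. The values of TTP-AA lay above those of TTP and did not overlap with them, while those of GFP-only overlapped with both. The order of conditions within a replicate number is fixed by construction. Replicate 3 was the highest in each condition, with a log2 ratio to replicate 1 of 0.74, where the middle 90% of the 10202 kept genes had between -0.43 and 0.48. The level of Il7r was 281 in GFP-only, 191 in TTP and 435 in TTP-AA macrophages. Its log2 difference was -0.56 (SE 0.21) for TTP over GFP-only, 0.63 (SE 0.21) for TTP-AA over GFP-only and 1.18 (SE 0.21) for TTP-AA over TTP, the last a ratio of 2.27.

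The annotated 3′UTR of Il7r has 2067 nt and holds 6 copies of ATTTA, the core of an AU-rich element, 2 of them within the longer TATTTAT, to which TTP is known to bind. Both TATTTAT sites are shown here because Il7r and Il10ra were the only members with more than 1 such site. The motif is in capitals, and the sites start 352 and 1465 bases after the stop codon.
Il7r, chr15:9507489-9507511, minus strand: aaattgacTATTTATccagcact
Il7r, chr15:9506376-9506398, minus strand: cctcttggTATTTATaaaggaaa

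Il10ra encodes the ligand-binding chain of the IL-10 receptor, and its footprints were lower in TTP macrophages than in both other conditions. Its values were 144, 136 and 157 in the GFP-only libraries, 80.4, 75.7 and 87.5 in the TTP libraries and 189, 177 and 205 in the TTP-AA libraries. The TTP libraries were the lowest and the TTP-AA libraries the highest. The log2 difference was -0.84 (SE 0.23, adjusted p = 0.015) for TTP over GFP-only, which is a ratio of 0.557. It was 1.23 (SE 0.23, adjusted p = 5.2e-06) for TTP-AA over TTP, a ratio of 2.34. Over GFP-only the difference of TTP-AA was 0.38 (SE 0.23, adjusted p = 0.46) and did not pass the threshold of 0.05. Il10ra was the only member past the threshold in the comparison of TTP with GFP-only, where 2.10% of the 9939 genes tested passed and 1.29% passed with a lower value in TTP. The macrophage markers Fcgr1, Lyz2 and Emr1 fell in the same comparison, and their part in the value of Il10ra was not tested.

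Il10ra spans chr9:45253837-45269149, minus strand. Its 3′UTR has 1693 nt and 3 copies of TATTTAT close together, of which the first 2 overlap and start 1390 bases after the stop codon. The third starts at base 1410. The windows of both sites share a few bases.
Il10ra, chr9:45254122-45254148, minus strand: ggaaccttTATTTATTTATttgctcac
Il10ra, chr9:45254106-45254128, minus strand: tgctcactTATTTATtgaggaag

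Il10rb encodes the second chain of the IL-10 receptor and also serves the receptors of IL-22 and of type III interferons. Its values were 265, 224 and 265 in GFP-only, 211, 178 and 210.4 in TTP and 335, 281 and 333 in TTP-AA macrophages. Those of TTP-AA lay above all others. Its log2 difference was -0.33 (SE 0.18, adjusted p = 0.49) for TTP over GFP-only and 0.66 (SE 0.18, adjusted p = 0.0044) for TTP-AA over TTP. For TTP-AA over GFP-only it was 0.33 (SE 0.18, adjusted p = 0.39) and did not pass. The change of Il10ra minus that of Il10rb was -0.51 (SE 0.29, 95% interval -1.08 to 0.05) for TTP over GFP-only and 0.57 (SE 0.29, interval -0.00023 to 1.13) for TTP-AA over TTP. Both intervals include 0. With the median of the chromosome subtracted from each gene, the difference was -0.60 (interval -1.16 to -0.03) and 0.73 (interval 0.17 to 1.299), and neither interval includes 0, so that whether Il10ra changed more than its partner depends on this setting. The 3′UTR of Il10rb has 711 nt, 4 copies of ATTTA and no TATTTAT. The ligand, Il10, had levels of 0.736 to 0.768 footprints over the conditions, and the chain for type III interferons, Ifnlr1, levels of 0.214 to 0.219.

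Il2rg encodes the common gamma chain, shared by the receptors of several interleukins, among them IL-4 and IL-7. Its values were 247, 227 and 265 in GFP-only, 250.4, 229 and 267 in TTP and 377, 344 and 401 in TTP-AA macrophages. The GFP-only and TTP libraries overlapped and those of TTP-AA stood above both. The log2 difference was 0.02 (SE 0.18, adjusted p = 0.99) for TTP over GFP-only, 0.60 (SE 0.18, adjusted p = 0.026) for TTP-AA over GFP-only and 0.59 (SE 0.18, adjusted p = 0.013) for TTP-AA over TTP. The gene lies on the X chromosome, and its 3′UTR of 474 nt holds no ATTTA. Il7r minus Il2rg was -0.57 (SE 0.27) for TTP over GFP-only, 0.02 (SE 0.27) for TTP-AA over GFP-only and 0.60 (SE 0.27) for TTP-AA over TTP, again without a test because of how Il7r was chosen.

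Il4ra, the IL-4 receptor chain that pairs with Il2rg or with Il13ra1, had values of 131, 136 and 136 in GFP-only, 149, 154 and 153 in TTP and 201, 208 and 207 in TTP-AA macrophages. The TTP-AA libraries were the highest. Its log2 difference was 0.18 (SE 0.20, adjusted p = 0.82) for TTP over GFP-only, 0.61 (SE 0.20, adjusted p = 0.064) for TTP-AA over GFP-only and 0.43 (SE 0.20, adjusted p = 0.17) for TTP-AA over TTP, and none of these passed. Il4ra minus Il2rg was 0.01 (SE 0.27, interval -0.51 to 0.54) for TTP-AA over GFP-only and -0.15 (SE 0.27, interval -0.68 to 0.37) for TTP-AA over TTP. Il13ra1, the other partner, fell between TTP-AA and TTP, with levels of 69.8 in TTP and 44.4 in TTP-AA macrophages and a log2 difference of -0.65 (SE 0.23, adjusted p = 0.049).

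Il6st encodes gp130, the chain shared by IL-6, leukemia inhibitory factor and oncostatin M, and was the single member with a lower level in TTP-AA than in TTP macrophages. Its values were 254, 261 and 246 in GFP-only, 275, 282 and 265 in TTP and 215, 219.5 and 207 in TTP-AA macrophages. The TTP-AA libraries were the lowest. The log2 difference was 0.11 (SE 0.19, adjusted p = 0.89) for TTP over GFP-only, -0.24 (SE 0.19, adjusted p = 0.65) for TTP-AA over GFP-only and -0.36 (SE 0.19, adjusted p = 0.27) for TTP-AA over TTP, and none passed. Among the ligands that use gp130, Osm fell in TTP-AA macrophages, from a level of 226 in GFP-only and 158 in TTP to 97.0, with log2 differences of -1.22 (SE 0.22, adjusted p = 1.2e-05) over GFP-only and -0.70 (SE 0.22, adjusted p = 0.021) over TTP. Il6 had levels of 29.5 to 32.3 and passed in no comparison. The 3′UTR of Il6st has 5641 nt with 9 copies of ATTTA and no TATTTAT.

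Ifnar1 and Ifnar2 form the receptor of type I interferons. Ifnar1 had values of 299.9, 285 and 424 in GFP-only, 269, 254 and 378 in TTP and 445, 419.6 and 626 in TTP-AA macrophages. Replicate 3 was high in each condition, with a log2 ratio of 0.50 to replicate 1, and its GFP-only value overlapped with the TTP-AA libraries, while those of TTP and TTP-AA did not overlap. The log2 difference of Ifnar1 was -0.16 (SE 0.16, adjusted p = 0.79) for TTP over GFP-only, 0.56 (SE 0.16, adjusted p = 0.021) for TTP-AA over GFP-only and 0.73 (SE 0.16, adjusted p = 0.00027) for TTP-AA over TTP. Ifnar2 had values of 380.1, 453 and 405 in GFP-only, 341, 405 and 361 in TTP and 473, 560.1 and 502 in TTP-AA macrophages. All of its TTP-AA libraries were above the libraries of the other conditions, and those of GFP-only and TTP overlapped. Its log2 difference was -0.16 (SE 0.15, adjusted p = 0.77) for TTP over GFP-only, 0.31 (SE 0.15, adjusted p = 0.31) for TTP-AA over GFP-only and 0.47 (SE 0.15, adjusted p = 0.023) for TTP-AA over TTP. Ifnar1 minus Ifnar2 was 0.25 (SE 0.22, interval -0.18 to 0.69) for TTP-AA over TTP, so that different changes of these chains were not shown. Ifnar2 has no ATTTA in its 3′UTR of 1175 nt and Ifnar1 has 1 in 2030 nt.

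Ifngr1 and Ifngr2 form the receptor of interferon gamma. Ifngr1, the ligand-binding chain, had values of 419, 473 and 568 in GFP-only, 389, 438 and 524 in TTP and 544, 609.9 and 733 in TTP-AA macrophages. The TTP-AA libraries lay above those of TTP and, except for replicate 3 of GFP-only, above those of GFP-only. Its log2 difference was 0.48 (SE 0.18, adjusted p = 0.063) for TTP-AA over TTP, and -0.11 and 0.37 in the comparisons with GFP-only (adjusted p = 0.89 and 0.31). Ifngr2 had values of 179.6, 223 and 214 in GFP-only, 152, 189 and 180.6 in TTP and 208, 257 and 247 in TTP-AA macrophages. Its log2 difference was 0.45 (SE 0.19, adjusted p = 0.11) for TTP-AA over TTP. Over GFP-only it was -0.24 for TTP and 0.21 for TTP-AA (adjusted p = 0.70 for both). The TTP-AA libraries overlapped with those of GFP-only and not with those of TTP. Ifngr1 minus Ifngr2 was 0.03 (SE 0.26, interval -0.47 to 0.54) for TTP-AA over TTP. Ifngr1 has no ATTTA in 541 nt of 3′UTR, whereas Ifngr2 has 6 in 2618 nt, 1 of them within a TATTTAT, shown here because Ifngr2 is the third member that holds the longer motif.
Ifngr2, chr16:91565182-91565204, plus strand: tccggtttTATTTATggcctggg

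**Figure D2:**
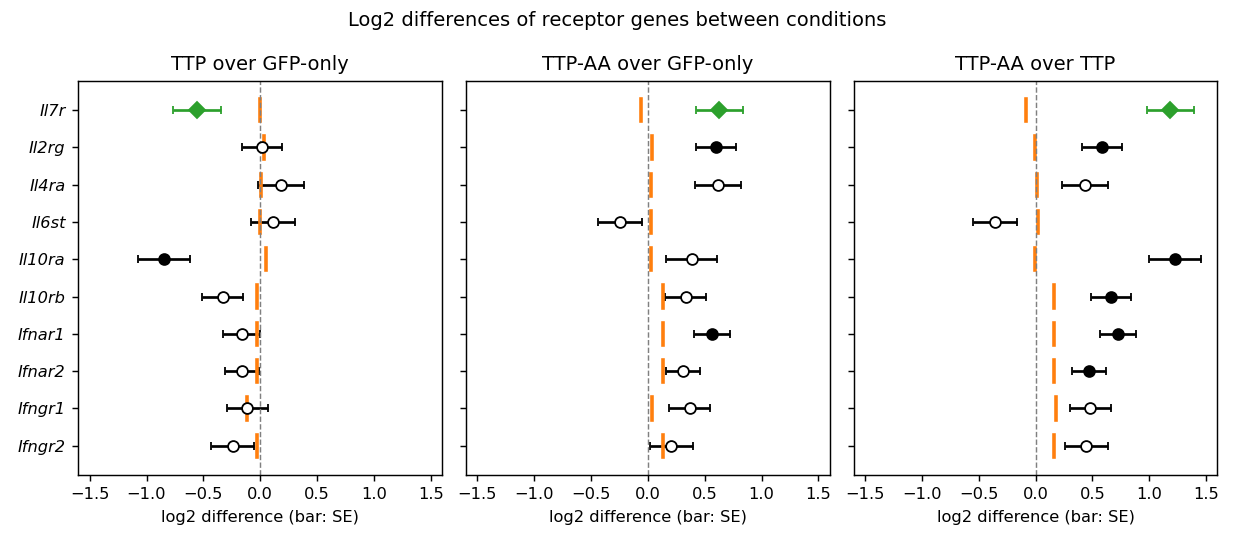
Log2 differences of the 10 receptor genes in the 3 comparisons, with bars of 1 SE. Filled circles passed an adjusted p of 0.05, open circles did not, the green diamond is Il7r, which was not tested, and orange ticks mark the median difference of all kept genes on the gene's chromosome. Between TTP-AA and TTP, 8 of the 9 tested genes lay above 0 and Il6st at -0.36, where the median of all genes tested was 0.0046.

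Counted over the 9 receptor genes other than Il7r, between TTP-AA and TTP 5 rose, none fell and 4 did not pass, where 10.3% of the 10202 genes tested passed and 5.64% passed with a higher value in TTP-AA. These 5 were Il2rg, Il10ra, Il10rb, Ifnar1 and Ifnar2. The median log2 difference of the 9 genes was 0.48, against 0.0046 for all genes tested. Between TTP-AA and GFP-only, 2 of the 9 rose (Il2rg and Ifnar1) and 7 did not pass, where 3.02% of all genes passed and 1.75% passed with a higher value. The median of the 9 was 0.37 in this comparison and 0.0052 over all genes. Between TTP and GFP-only, 1 fell (Il10ra) and 8 did not pass, where 2.10% of all genes passed and 1.29% passed with a lower value. The median of the 9 was -0.16 there and 0.0034 over all genes. The comparisons share their libraries and are not independent of each other.

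The genes Ifnar2, Il10rb, Ifnar1 and Ifngr2 lie within one stretch of the plus strand of chromosome 16, from 91372783 at the start of Ifnar2 to 91565623 at the end of Ifngr2. The kept genes of chromosome 16 had a median log2 difference of 0.16 between TTP-AA and TTP and of 0.13 between TTP-AA and GFP-only, the second highest and the highest of 20 chromosomes. The part of this chromosome-wide difference in the values of the receptor genes was not tested. When the chromosome median was subtracted, Ifnar1 stayed past the threshold between TTP-AA and TTP (0.57, adjusted p = 0.0087), whereas Il10rb (0.50, adjusted p = 0.052) and Ifnar2 (0.31, adjusted p = 0.21) did not, and Ifnar1 no longer passed over GFP-only (0.43, adjusted p = 0.14). Of the 18 other genes tested that start within 1 Mb of Ifnar1, none passed in either direction in any comparison. Over all genes 2.10% passed between TTP and GFP-only, 3.02% between TTP-AA and GFP-only and 10.3% between TTP-AA and TTP. The median of the 18 was 0.11 between TTP-AA and TTP, where the median of the 4 receptor genes was 0.57. Between TTP-AA and GFP-only these medians were 0.19 and 0.32. Over all of chromosome 16, 37 of 326 genes tested (11.3%) rose between TTP-AA and TTP. Ifngr1 spans chr10:19591949-19610229, plus strand, on the chromosome with the highest median between TTP-AA and TTP, 0.18. A further annotated gene, Gm21970, overlaps both Ifnar2 and Il10rb on the same strand and was not analysed here, and Gm20489 likewise overlaps Il2rg and was not analysed here. How reads in these overlaps were assigned is not given in the sources used here.

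**Figure D3:**
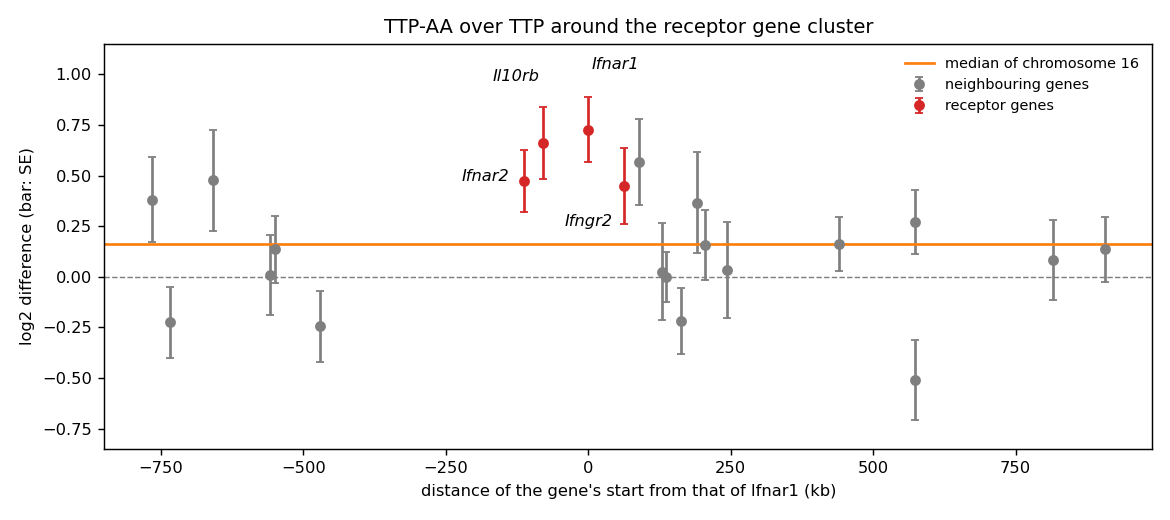
Log2 difference between TTP-AA and TTP of the genes tested that start within 1 Mb of Ifnar1, against the distance of their start from that of Ifnar1 in kb, with bars of 1 SE. The 4 receptor genes (red) had a median of 0.57, the 18 neighbouring genes (grey) one of 0.11, and the orange line is the median of chromosome 16, 0.16.

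Relative to the length of the coding sequence, Ifngr1 had the highest level in each condition, and Il4ra, Il6st and Il10ra had the lowest. In GFP-only macrophages the levels per kb of coding sequence were 337 for Ifngr1, 267 for Ifnar2, 237 for Il10rb, 221 for Il2rg, 205 for Ifngr2, 204 for Il7r and 187 for Ifnar1. Between neighbours in this order the ranges over the 3 libraries overlapped. Il6st had 92.0, Il10ra 84.2 and Il4ra 55.1. These ranges reflect the replicate number alone, so the order has no test. Thus the ligand-binding chain Il10ra was at a lower level per kb than Il10rb, and Il4ra at a lower one than Il2rg, in each condition. In TTP macrophages Il10ra was the last in the order, at 46.9 per kb, and Il7r ranked 7, at 139. In TTP-AA macrophages Il7r ranked 4, at 315, but its range of 239 to 466 overlapped with those of all the genes ranked 1 to 3 and 5 to 7. Il6st was the last there, at 77.7.

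The motif counts can be set against all kept genes with an annotated 3′UTR. TATTTAT was present in the 3′UTR of 3 of the 10 members and of 28.4% of 9970 genes, and ATTTA in 6 members and 67.9% of genes, searched on the mRNA strand with overlaps allowed. At least 2 copies of TATTTAT, as in Il7r and Il10ra, were found in 9.53% of genes. The genes with at least 2 copies had a median log2 difference of -0.03 for TTP over GFP-only. Genes without a copy had 0.01 (924 and 6971 genes tested). For TTP-AA over TTP these medians were -0.06 and 0.02 (950 and 7135 genes). For TTP-AA over GFP-only they were -0.09 and 0.03 (950 and 7135 genes), where Il7r had 0.63 and Il10ra 0.38. These medians are a description and were not tested. A match is a description of the sequence and says nothing on binding.

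Other genes of the same pathways were taken from lists by known role. Of 32 other receptor chains, 11 were tested between TTP-AA and TTP. Of these, 1 rose (Csf2rb2), 1 fell (Il13ra1) and 9 did not pass, with a median log2 difference of 0.40. Of all 10202 genes tested there, 10.3% passed, 5.64% with a higher value, and the median was 0.0046. Csf2rb2 encodes a beta chain for IL-3, had levels of 249 in TTP and 354 in TTP-AA macrophages and a difference of 0.51 (SE 0.18, adjusted p = 0.040). It is nearly identical to Csf2rb, and with up to 2 alignments per read their footprints may be mixed. Crlf2, the TSLP receptor chain that pairs with Il7r, did not pass, with 0.50 (SE 0.20, adjusted p = 0.088). In the comparisons of TTP and of TTP-AA with GFP-only, 0 of the 10 and 11 other chains tested passed. Over all genes 2.10% and 3.02% passed. By the same Wald test, 0 and 4 of the chains had an unadjusted p under 0.05. The share of all genes under that cutoff was not counted, so such counts have no background, here and in the lists below.

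Of 24 ligands, 6 were tested between TTP-AA and TTP. Of these, 1 rose (Ebi3), 1 fell (Osm) and 4 did not pass, with a median of 0.23. Over all genes 10.3% passed there and the median was 0.0046. Ebi3 encodes a subunit of IL-27, whose receptor uses gp130. It had levels of 61.2 in TTP and 93.8 in TTP-AA macrophages with a log2 difference of 0.62 (SE 0.21, adjusted p = 0.040). The other subunit, Il27, had levels of 1.67 to 1.69 and the receptor chain Il27ra of 0.782 to 0.795, both too low to be tested. The ligand of Il7r, Il7, had levels of 0.188 to 0.194 footprints. Of 6 ligands tested in TTP-AA over GFP-only, only Osm passed the threshold, where 3.02% of all genes passed. In TTP over GFP-only 0 of 5 tested passed, where 2.10% of all genes passed. There 1 of the 5 had an unadjusted p under 0.05 by the same Wald test.

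Of 24 signalling genes, 21 were tested between TTP-AA and TTP. Of these, 6 rose, none fell and 15 did not pass, with a median of 0.27. Over all genes 10.3% passed there, 5.64% with a higher value, and the median was 0.0046. Irf9, a subunit of the factor that type I interferons activate, rose from a level of 30.9 to 68.9, with a log2 difference of 1.16 (SE 0.25, adjusted p = 0.00015). Its level in GFP-only macrophages was 47.4, and neither TTP (-0.62, adjusted p = 0.24) nor TTP-AA (0.54, adjusted p = 0.26) passed over GFP-only. Usp18, which binds the Ifnar2 chain and damps its signal, rose from 28.7 to 62.0, with 1.11 (SE 0.24, adjusted p = 0.00021). It had fallen to 28.7 from 77.2 in TTP over GFP-only macrophages, with -1.43 (SE 0.24, adjusted p = 1.2e-06). Of the 20 signalling genes tested there it was the only one past the threshold, where 2.10% of all genes passed. The others that rose were the kinase Jak2 (0.68), the feedback inhibitor Socs3 (0.53), Stat6 (0.45), the factor downstream of IL-4, and the phosphatase Ptpn6 (0.41), with adjusted p of 0.034, 0.030, 0.027 and 0.037. Stat2 and Stat3 had 0.24 and -0.17 and did not pass. Of the 21 tested, 0 passed in TTP-AA over GFP-only, where 3.02% of all genes passed. Of these 21, 4 had an unadjusted p under 0.05 there by the same Wald test. Of the calls in these lists, those of Csf2rb2, Il13ra1, Ebi3, Jak2, Stat6, Ptpn6 and, between TTP-AA and TTP, Osm were lost under at least 1 alternative.

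**Figure D4:**
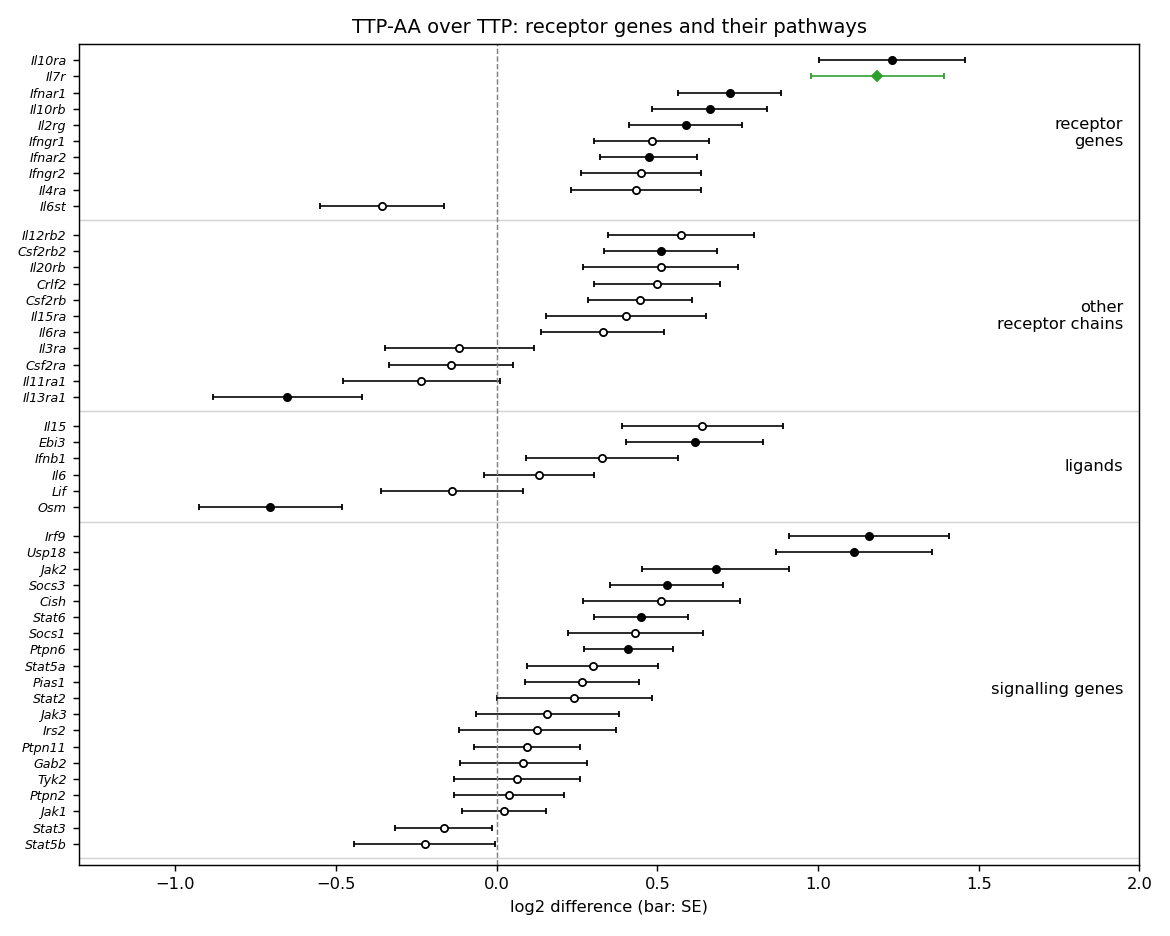
Log2 differences between TTP-AA and TTP of the 10 receptor genes and of the tested genes of 3 pathway lists, except 1 that is not reported here, sorted within each list, with bars of 1 SE. Filled symbols passed an adjusted p of 0.05, open ones did not, and the green diamond is Il7r, which was not tested. Irf9 (1.16) and Usp18 (1.11) reached differences near those of Il10ra (1.23) and Il7r (1.18).

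The genes nearest to Il7r over the 9 libraries were found by the Euclidean distance of log2 values after removal of the size factor and of the gene's mean, among 8638 genes with a mean of at least 50. They were Rsad2 (distance 0.47), an interferon-induced antiviral protein, Ptafr (0.56), the receptor of platelet-activating factor, and Parp14 (0.60), against a median distance of 1.97. Likeness in these fitted values rests on 2 differences between conditions and 2 terms for the replicate number. Rsad2 had levels of 79.1 in GFP-only, 54.4 in TTP and 108 in TTP-AA macrophages. As for Il7r, its replicate 3 was the highest, at 126 against 61.6 and 63.9 in GFP-only macrophages. The distance includes the terms for the replicate number, so this likeness is part of how Rsad2 was found.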

How the data were processed

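RiboSeq libraries of 9 samples, 3 per condition, were grouped by their labels. Per the methods and the submitters' processing notes, the authors mapped reads to mm10 (GRCm38) with TopHat (TopHat2 2.0.12 in the notes, up to 2 alignments per read) and fitted counts with DESeq2 1.6.3 on library date and condition. Trim Galore and HTSeq are named without a version. The values of 1 signalling gene are not reported here. How strand was handled is not given in the sources used here.

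The deposited table named as normalized counts holds a signal that the authors fitted, the size factor of a library times the fitted mean. Its log2 values were checked: a fit per gene of condition and replicate number, with a constant for each library, left at most 1.4e-13. From the authors' comparison tables only the standard error of the log2 fold change was used. Their fold changes, Wald statistics and p-values, which hold the authors' own tests, were not used. Both the fitted values and the standard errors come from the authors' model, so the test used here is not independent of theirs.

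Size factors were medians of ratios over the 10202 genes with a mean of at least 10. Each log2 difference between condition levels was divided by the deposited standard error (Wald z, two-sided normal p) and adjusted by Benjamini-Hochberg over all kept genes with a standard error, at a threshold of 0.05. The fit intended for values with scatter between replicates (limma) did not apply. Intervals (95%) are normal, and those of pairs treat both genes as independent. Reads per library are not known here, so depth enters only through the standard errors.

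The receptor genes and all lists were chosen with earlier results of these data known. Named were the receptor genes, Zfp36, pathway genes past the threshold and the 3 genes nearest to Il7r. Crlf2, Il6, Il7, Il10, Il27, Il27ra, Ifnlr1, Stat2, Stat3, Gm20489, Gm21970 and markers were named for their role after their values were seen. Positions, coding lengths and 3′UTRs came from GENCODE vM21 on GRCm38, 1 transcript per gene, ranked by APPRIS, CCDS, support level and 3′UTR length. The scripts were tested on simulated data and used Python 3.11.15, numpy 2.4.6, pandas 2.3.3 and scipy 1.17.1.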

Additional observations from a re-analysis of the deposited data

How the results depend on the processing

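No paired analysis was possible because the deposited values are fitted and already contain the term for the replicate number, so that no scatter is left. For the same reason no library could be left out, and neither of these was run. The settings tried were a mean of at least 50, no filter, adjustment over the 3 comparisons together, subtraction of chromosome medians, scaling to library sums and a pseudocount of 10.

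The count of the 9 tested receptor genes past the threshold between TTP-AA and GFP-only was 3 in place of 2 when the comparisons were adjusted together, as Il4ra (adjusted p = 0.049) was added. With the chromosome median subtracted it was 1, without Ifnar1, and between TTP-AA and TTP it was 3 in place of 5, without Il10rb and Ifnar2. The count of pathway genes between TTP-AA and TTP was 5 with joint adjustment, 6 with the pseudocount and 7 with the chromosome median subtracted, in place of 10. With the pseudocount 197 in place of 308 genes of all tested passed between TTP-AA and GFP-only. Subtraction of chromosome medians turned the sign of 2 values near 0 for TTP over GFP-only, which were -0.016 for Il2rg and 0.0045 for Ifngr1, neither past the threshold. Of 162 values of the 9 tested receptor genes under alternatives, 160 kept their direction and 156 also their side of the threshold. The stricter filter, no filter and joint adjustment leave a difference unchanged, and the pseudocount cannot turn its sign. Direction could therefore change only with chromosome medians subtracted or with scaling to library sums. The call of Zfp36 between TTP-AA and TTP was lost with joint adjustment (adjusted p = 0.065) and with the pseudocount (0.051). All 45 pair differences moved by less than their SE. For scaling to library sums this was fixed, as the scale cancels in a pair difference. The intervals of Il10ra minus Il10rb for TTP over GFP-only and for TTP-AA over TTP no longer included 0 with the chromosome median subtracted. The cause of these shifts was not tested.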
